A study of Mus musculus with 384 samples.

Results

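The 5ar2 cells described here were chosen by a measured value, the level of genes on chromosome 19. Of 90 cells of the mouse formative stem (FS) cell line 5ar2 with at least 3000000 counts, 52 had a chromosome 19 ratio above 1.2 and are called raised, and 38 are called the remaining cells. The ratio divides each gene's level by its mean over the cells of 4 lines, sets values above 3 to 3, averages the genes of a chromosome and divides by the median of the cell's 19 autosomes. Levels are CPM, counts per 1000000 counts of a cell. The ratio rests on 6901 protein-coding genes whose mean level reached 20 CPM, of which 249 lie on chromosome 19. The raised cells are 57.8% of the kept 5ar2 cells (exact Clopper-Pearson 95% interval 46.9 to 68.1%). They are 52 of 326 kept cells and of 384 sequenced cells in all.

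The study measured the RNA of single cells with Smart-seq2, a full-length method without molecular identifiers. FS cell lines 5ar1 and 5ar2 were grown in A3XR, called AloXR in the paper, which holds a low dose of activin A with the tankyrase inhibitor XAV939 and BMS493, an inverse agonist of retinoic acid receptors. The EpiSC lines AFX6, in activin A, Fgf2 and XAV939 (AFX), and AF32, in activin A and Fgf2 (AF), stand for primed pluripotency. No gene deletion or further treatment is named for any line. All 5ar2 cells come from 1 line, so raised and remaining cells are 1 sample each and cells are not replicates. No test was therefore made and no p-value is given, and intervals cover only the counting of reads or of cells.

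Formative cells stand for epiblast that has left the naive state and has become competent for lineage and germ cell induction. Mouse pluripotent cells in culture are known to gain whole chromosomes, and a gained copy is known to raise the RNA of most of its genes about in step with gene dose. The paper reports chromosome counts of FS cultures in which most cells were diploid, also at later passages, without naming the line in its main text. The DNA of the sequenced cells was not analysed here, so all values are levels of RNA.

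The chromosome 19 ratio put 5ar2 cells into separate ranges. In raised cells it lay from 22.0% to 51.2% above 1, with a median 36.5% above it, and in remaining cells from 20.9% below 1 to 3.28% above it, with a median 9.14% below it. The cells nearest to the limit lay 22.0%, 24.1% and 25.8% above 1 on the inside and 3.28% above 1 on the outside, followed by a pair at 1.0. The space between the sets held 0 cells. In 5ar1, grown in the same medium, 0 of 90 cells passed the limit, and the median was 5.29% below 1. In AFX6 2 of 66 cells and in AF32 18 of 80 cells passed it, and remaining AF32 cells reached 19.0% above 1, with no such space. All 18 of these AF32 cells also passed 1.2 on chromosomes 2, 8 and 11.

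**Figure D1:**
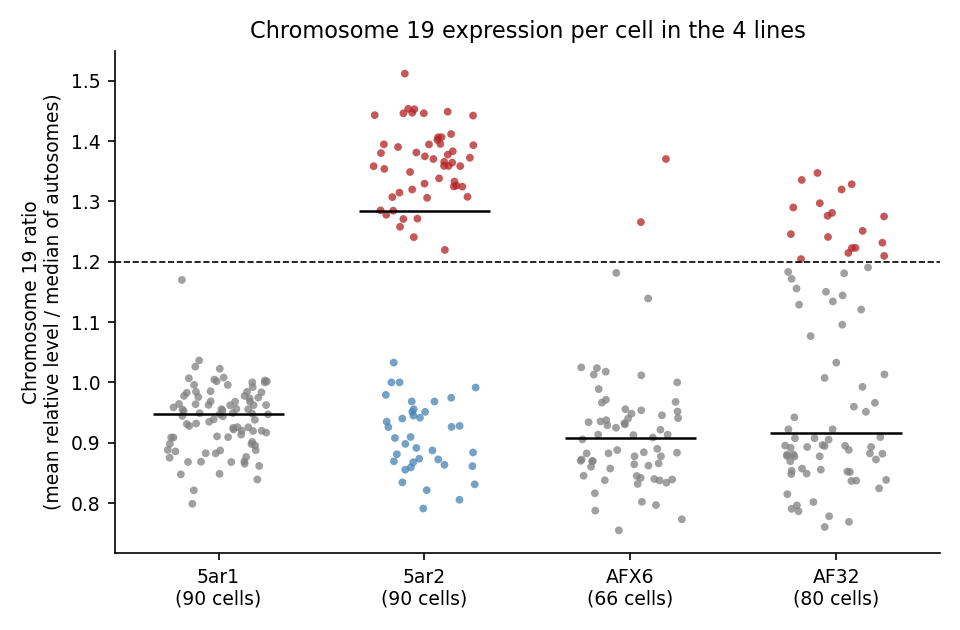
Chromosome 19 ratio (vertical axis, no unit) of each kept cell by line, with 1 point per cell, black lines at the line medians, a dashed line at the limit of 1.2 and red points above it. The 52 raised and 38 remaining 5ar2 cells form separate ranges, while all 90 cells of 5ar1 lie below the limit.

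Raised and remaining cells were alike in depth. The median was 4801682 counts and 11646 detected genes in raised cells, and 4861418 counts and 11473 genes in remaining cells. Formative factors were measured in both sets: Pou5f1, the Oct4 gene, had medians of 457 and 541 CPM, Otx2 169 and 165 CPM, and Fgf5 247 and 204 CPM. Their 9 measured members summed to between 266 and 5874 CPM in raised cells and between 1545 and 5100.1 CPM in remaining cells.

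Markers of other states were low. Summed naive factors had medians of 12.0 CPM in raised and 0.394 CPM in remaining cells, and among them only Klf5 had a median above 0. Summed streak and endoderm factors had medians of 28.2 and 36.2 CPM, mostly Eomes, with Mesp1 at 0 in all cells. Summed neural genes had 207 and 194 CPM, mostly Nes and Tubb3, and the extraembryonic markers medians of 0 in both sets. The part of these markers in the results was not tested.

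Chromosome 16 was raised in many of the same cells. Its ratio passed 1.2 in 28 of 52 raised cells (53.8%, interval 39.5 to 67.8%) and in 4 of 38 remaining cells (10.5%, interval 2.9 to 24.8%). This gives 28 cells with chromosomes 19 and 16 raised, 24 with only 19, 4 with only 16 and 34 with neither. Chromosome 15 passed the limit in 4 raised and 7 remaining cells, and any other chromosome in at most 1 cell of either set. Results are therefore given over all cells and, where it matters, for the 24 cells with only 19 raised against the 34 with neither.

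**Figure D2:**
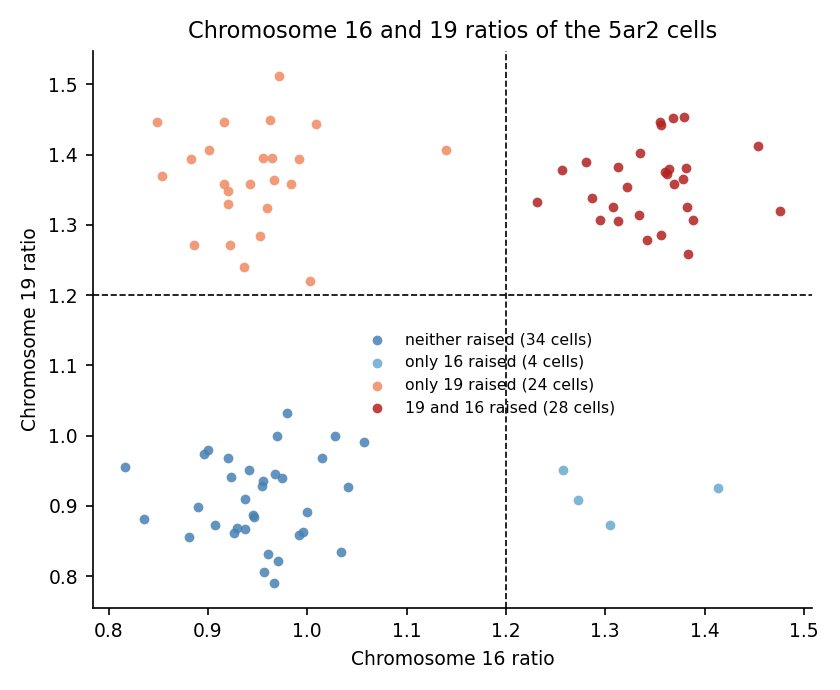
Chromosome 19 ratio (vertical axis) against chromosome 16 ratio (horizontal axis) of the 90 kept 5ar2 cells, with 1 point per cell, colours for the 4 classes and dashed lines at 1.2. The 28 cells with both raised and the 24 with only chromosome 19 raised cover about the same range on the vertical axis.

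Nearly all genes of chromosome 19 were higher in raised cells, by about 1.5-fold. Differences compare counts summed over the cells of each set and scaled by the set's total. Among 254 protein-coding chromosome 19 genes of at least 20 CPM in 5ar2, the median gene was 52.0% higher, with quartiles of 37.4% and 72.1%. Of these, 247 were higher and 228 were higher by 25% or more, a size reached by 10.6% of 6061 genes off chromosomes 16 and 19. These genes chose the cells, so their differences describe the dose and nothing is read from the count. Summed over the 254 genes the level was 48.8% higher (interval 48.7% to 49.0%), and chromosome 19 took a median of 4.66% of a raised cell's counts against 3.16% in remaining cells.

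The step was of like size with and without raised chromosome 16. The median chromosome 19 gene was 54.1% higher in cells with only 19 raised than in cells with neither, and 49.2% higher in cells with both than in cells with neither. Between cells with both and cells with only 19 it was 2.1% lower. Compared with the 90 cells of 5ar1, the median gene was 48.7% higher in raised cells and 6.3% lower in remaining 5ar2 cells, and both comparisons share the 5ar1 cells. The median of 226 chromosome 16 genes was 45.3% higher in cells with both than with neither, and 2.0% lower in cells with only 19 than with neither.

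**Figure D3:**
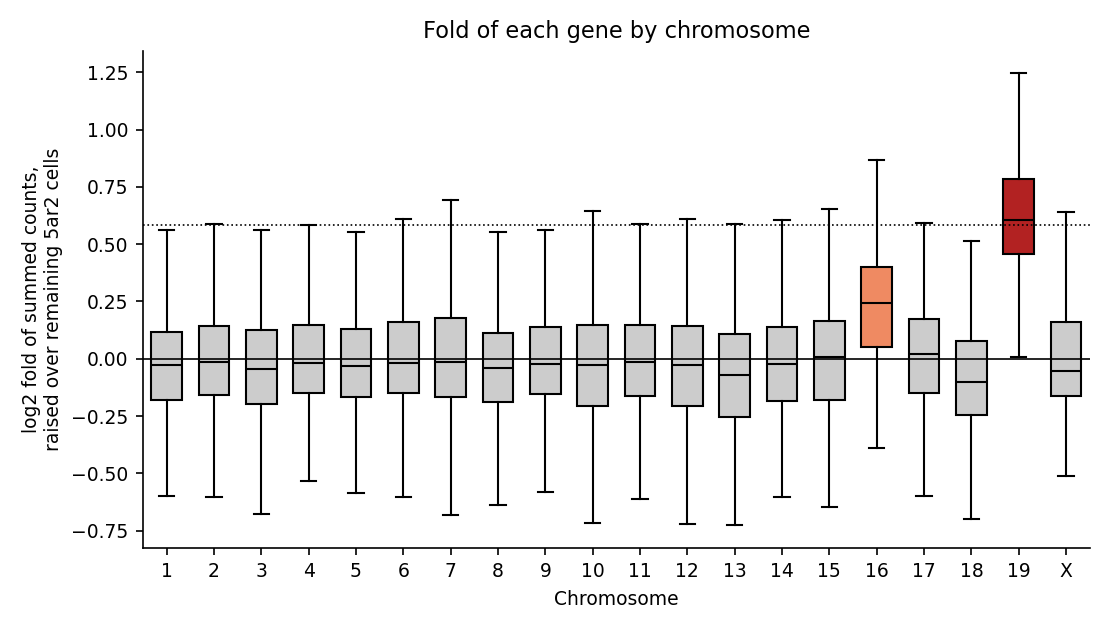
Fold of summed counts, raised over remaining 5ar2 cells, on a log2 scale for protein-coding genes of at least 20 CPM, by chromosome. Boxes show the median and quartiles, whiskers reach at most 1.5 box lengths, the dotted line marks 1.5-fold, and only chromosome 19 (median gene 52.0% higher) and chromosome 16 (18.2% higher) stand above the 17 other autosomes.

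On the 17 other autosomes, the median gene lay between 6.8% lower, on chromosome 18, and 1.5% higher, on chromosome 17. Over the 6061 genes off chromosomes 16 and 19 the median fold was 0.983. CPM is a share of a total, so a larger share of chromosome 19 lowers all other shares a little.

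The step ran along all of chromosome 19. In 10 consecutive windows of 25 or 26 genes, from Ighmbp2 to Prdx3 (chr19:3259076-60874556, GRCm38), the median gene was between 46.5% and 58.0% higher. When the 249 genes of the ratio were read as 3 consecutive blocks of 83, each divided by its median in remaining cells, 51 of 52 raised cells passed 1.2 in all 3 blocks and 1 cell in 2. Of the remaining cells, 37 of 38 passed in 0 blocks and 1 in 1. No raised cell was high over 1 block alone. The genes of the blocks, and most genes of the windows, also chose the cells. A high mean over them was therefore set by the choice, and these counts of cells are a description.

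**Figure D4:**
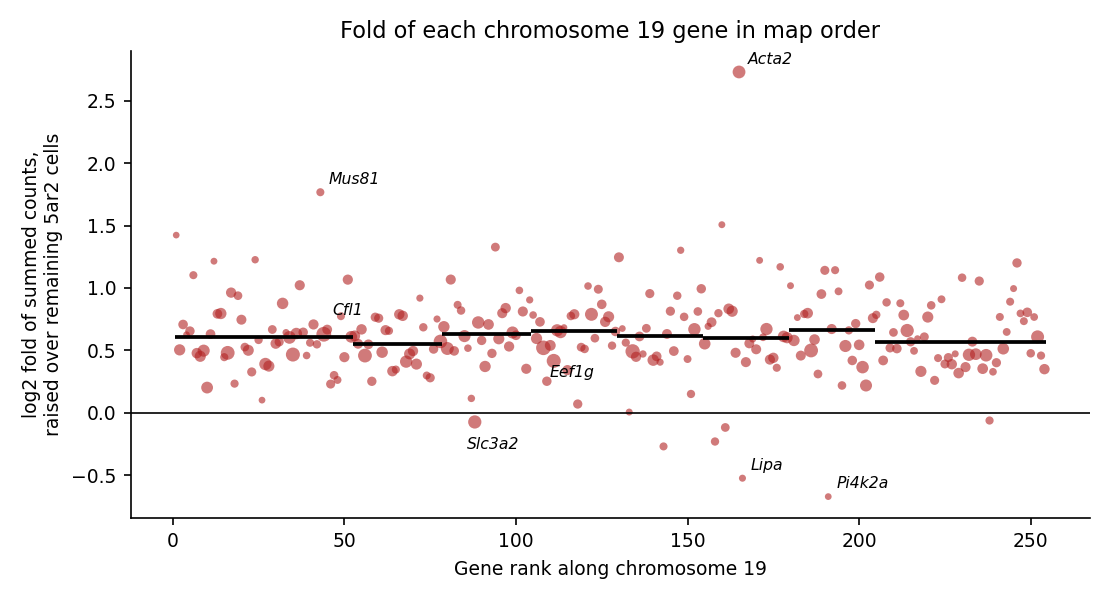
Fold of summed counts, raised over remaining 5ar2 cells, on a log2 scale for 254 chromosome 19 genes in map order (horizontal axis, gene rank). Points grow with the gene's level, black lines are the medians of 10 windows (46.5% to 58.0% higher), and labels mark genes far from them, such as Acta2 above and Slc3a2, Lipa and Pi4k2a below.

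Genes that the ratio did not use had a like step in the same cells. The 101 protein-coding chromosome 19 genes of at least 5 CPM in 5ar2 that were too low over the 4 lines had a median 54.3% higher, and 2713 such genes off chromosomes 16 and 19 a median fold of 1.0. Among 171 genes of 1 to 20 CPM, 149 (87.1%) had a count in a larger share of raised than of remaining cells, against 55.9% of 5227 such genes off chromosomes 16 and 19. When cells were chosen on every other gene in map order and levels were read on the genes in between, the median was 53.0% higher over 124 genes and 48.8% higher over 125.

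Noncoding genes of chromosome 19 differed by kind. Of 20 with at least 5 CPM, 9 were long noncoding, antisense, small nucleolar or processed transcripts, all 9 higher and with a median 71.0% higher. Malat1, a nuclear RNA of speckles (chr19:5795690-5802672), ranged from 44.1 to 2128 CPM with a median of 443 in raised cells, and from 63.4 to 773 CPM with a median of 254 in remaining cells. It was 71.0% higher, although its ranges overlap widely. Snhg1, a host of small nucleolar RNAs, was 69.4% higher, and Neat1, which builds paraspeckles, 14.9% higher at only 9.54 and 8.30 CPM.

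The other 11 were processed pseudogenes, copies of spliced RNAs whose parent genes usually lie elsewhere, with a median 2.6% lower and 3 of 11 above 1. Pcna-ps2 was at 84.1 and 80.7 CPM, 4.16% higher, and its parent Pcna on chromosome 2 was 4.97% higher. Rpl9-ps6, recorded as protein-coding, was 7.85% lower, and Rpl9 on chromosome 5 6.8% lower. Reads of such near-identical copies can be counted at either place, so these values are uncertain.

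Cfl1 and Eef1g, the most abundant chromosome 19 genes, differed in most pairs of cells. Eef1g, a subunit of the factor that reloads eEF1A with GTP (chr19:8967041-8978479), ranged from 1454 to 2949 CPM with a median of 2002 in raised cells, and from 911 to 1984 CPM with a median of 1397 in remaining cells. It was 43.4% higher, and the raised cell was the higher in 94.0% of all pairs of a raised and a remaining cell. The ranges overlap, but the lowest raised cell lies above the median remaining cell. Cfl1, the actin-severing cofilin (chr19:5490455-5495201), ranged from 1545 to 4202 CPM with a median of 2579.6 in raised cells, and from 1183 to 3093 CPM with a median of 1582 in remaining cells, and was 54.7% higher. Over the 254 genes the median share of such pairs was 68.4%, against 49.7% over the 6061 genes off chromosomes 16 and 19. Cfl1, Eef1g and most of the 254 genes also chose the cells. Their larger shares were therefore set by the choice, and nothing is read from the contrast.

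Most of the other abundant genes lay in a narrow band. Fau, which encodes ribosomal protein S30, ranged from 264 to 1762 CPM with a median of 1104 in raised cells, and from 538 to 1335 CPM with a median of 813 in remaining cells, and was 37.4% higher. Psat1 of serine synthesis was 40.6% higher, the ferritin heavy chain gene Fth1 33.4% higher, Banf1 of the nuclear envelope 38.2% higher, Pgam1 of glycolysis 41.3% higher, the phosphatase subunit gene Ppp1ca 39.5% higher and the co-chaperone gene Stip1 48.6% higher. By level, the median was 44.2% higher over 42 genes of 200 CPM or more, 51.1% higher over 117 of 50 to 200 CPM and 58.0% higher over 95 of 20 to 50 CPM.

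Slc3a2, the heavy chain of several amino acid transporters (chr19:8706882-8723369), did not share the step. It ranged from 97.0 to 1849.6 CPM with a median of 637 in raised cells, and from 225 to 1368 CPM with a median of 681 in remaining cells, and these ranges overlap almost fully. It was 4.99% lower, the only one of 159 genes of 50 CPM or more that was not higher, and 1.4% higher without the cells with raised chromosome 16. Next came Cpsf7, of 3′ end cleavage, which was 4.96% higher and 1.8% lower without those cells. Gstp1, a glutathione transferase, was 15.0% higher, Ndufb8 16.4% higher and the acetyltransferase gene Kat5 17.3% higher. From 20 to 50 CPM 6 genes were lower: the lipid kinase gene Pi4k2a by 37.2%, the lysosomal lipase gene Lipa by 30.5%, and Cemip2, Gldc, Rpl9-ps6 and Pdcd4. Scd1, with a mean of 11.2 CPM, lay below this minimum and had a summed fold of only 0.0425. Its medians were 0 in both sets, and 0 raised and 7 remaining cells were above 50 CPM. Fgf8, also below the minimum, had a summed fold of 0.423, with 64.5% of the remaining cells' counts in 1 cell.

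At the upper end 24 genes were at least 2-fold higher. Acta2, smooth muscle actin (chr19:34241090-34255590), ranged from 0 to 35858 CPM with a median of 3.80 in raised cells, and from 0 to 3504 CPM with a median of 0.471 in remaining cells. Its summed fold was 6.6, but 91.5% of its counts in raised cells came from 1 cell, which had chromosome 16 raised too, and it was 67.5% higher without the cells with raised chromosome 16. Mus81, a nuclease that acts on stalled replication forks and named after its values were seen, ranged from 0 to 204 CPM with a median of 34.0 in raised cells, and from 0 to 78.3 CPM with a median of 1.9 in remaining cells, with a fold of 3.40. Taf6l, of a histone acetyltransferase complex, was 151% higher, the syntaxin gene Stx3 137% higher, Nhlrc2 129.8% higher and Morn4 121% higher.

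By role, chromosome 19 genes had like steps. Of all 254, 228 (89.8%) were higher by 25% or more, and these genes also chose the cells, so the counts by role are a description and nothing is read from them. All 15 measured genes of replication and mitosis were higher by 25% or more, with a median 52.8% higher. Ddb1, of the recognition of ultraviolet damage, had medians of 651 and 363 CPM and was 72.8% higher, the checkpoint gene Rad9a 94.9% higher, the spindle kinesin gene Kif11 35.7% higher and the cohesin gene Smc3 37.6% higher. In RNA processing and translation 12 of 13 reached 25%, with a median 52.0% higher: Sart1 of the spliceosome was 103% higher, Nolc1 of the nucleolus 57.9% higher and the mRNA export factor Nxf1 29.3% higher. In chromatin and transcription 13 of 17 did, with a median 56.4% higher. Men1, the menin gene, was 71.3% higher, the histone methyltransferase gene Kmt5b 115% higher, and the co-repressor gene Tle4 had medians of 15.8 and 15.2 CPM.

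All 10 signalling genes reached 25%, beside 89.8% of all chromosome 19 genes, with a median 40.9% higher. The hedgehog inhibitor Sufu was 81.6% higher and Tnks2, a tankyrase that XAV939 inhibits, 42.3% higher. Metabolic genes had the smallest median, 38.9% higher, with 12 of 16 at 25% or more. The fatty acid desaturases Fads1 and Fads2 were 56.6% and 58.1% higher, Got1 of aspartate metabolism 44.9% higher and Scd2 28.8% higher. Of 13 genes of the cytoskeleton, traffic and folding 12 reached 25%, with a median 56.6% higher, among them Actr1a of dynactin, 70.2% higher, and Add3, an adducin, 108% higher.

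Partner subunits encoded off chromosome 19 did not share the step. In each of 11 complexes, 0 partners were as high as the lowest chromosome 19 member. Genes of chromosome 19 chose the cells, so the higher place of these members was largely set by the choice. Over all 6061 genes off chromosomes 16 and 19 the median fold was 0.983. In respiratory complex I, Ndufv1, Ndufs8 and Ndufb8 on chromosome 19 were 41.2%, 36.8% and 16.4% higher, while the median of 33 partners was 10.4% lower and the highest 10.4% higher. In complex IV, Cox8a was 42.9% higher and the median of 10 partners 9.17% lower. The median of 29 other proteins of the small ribosomal subunit was 8.27% lower, beside Fau above.

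Other complexes gave the same picture. The 5 mitochondrial ribosomal proteins on chromosome 19 were 29.6% to 69.1% higher, and the median of 14 others 3.92% lower. Eif3a was 52.5% higher with 11 eIF3 partners at a median 2.97% lower, and Pola2 of DNA polymerase alpha 53.2% higher with 3 partners at a median 5.02% lower. The splicing factor Sf3b2 was 52.0% higher with 6 partners at a median 2.8% higher, and Prpf19 65.7% higher with 6 partners at a median 7.19% higher. Incenp of the chromosomal passenger complex was 45.4% higher with 3 partners at a median 4.86% lower. For cohesin the 10 partners were at a median 2.2% higher. The 3 partners of Eef1g had the highest median, 12.8% higher. Eef1d on chromosome 15 was the only partner past 25%, a size reached by 10.6% of genes off chromosomes 16 and 19.

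Off chromosome 19, the number of large differences depended on how cells were summarised. In summed counts 337 of 6287 genes (5.36%) differed by 1.5-fold or more, 190 higher and 147 lower in raised cells, and 20 of the 190 lie on chromosome 16. With medians of CPM per cell, 948 of 6285 did. Between cells with only 19 raised and cells with neither, 548 (8.72%) differed as much, 242 higher and 306 lower. Of the 190 and 147 genes, 120 and 103 passed in both comparisons, which share cells, and 152 and 116 had under 50 CPM. Of 3763 genes off chromosomes 16 and 19 with 50 CPM or more in either set and a count in most cells of the higher set, 126 (3.35%) were higher and 149 (3.96%) lower by 1.3-fold or more in both comparisons. Genes could enter through their higher set alone, which favours large differences, so these counts are a description. The 10 with the largest differences each way are described next.

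Gdf3, a TGF-beta family ligand related to Nodal (chr6:122605403-122610087), differed most. It ranged from 0 to 97.5 CPM with a median of 0 in raised cells, and from 0 to 505 CPM with a median of 99.7 in remaining cells. The summed levels were 4.35 and 118 CPM, 27.2-fold lower in raised cells, and cells either had the RNA or nearly lacked it. Above 5 CPM, a level set after the values were seen, were 21 of 34 cells with neither chromosome raised (61.8%, interval 43.6 to 77.8%). With only 19 raised 2 of 24 cells (8.33%, interval 1.0 to 27.0%) and with both 3 of 28 (10.7%, interval 2.3 to 28.2%) were above it. Of the 4 cells with only 16 raised 0 were, which allows a share of up to 60.2%. In 5ar2 the cells above this level had at least 16.0 CPM. Gdf3 and the level were both picked from these cells, which are not replicates. The shares and intervals are therefore a description, and nothing is read from their distance.

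Gdf3 varied in other lines as well. In 5ar1 27 of 90 cells (30.0%, interval 20.8 to 40.6%) were above 5 CPM, with a median of 29.8 CPM among them against 173 CPM among the 21 remaining 5ar2 cells. In AF32 3 of 18 raised and 7 of 62 remaining cells were above it, with summed levels of 15.2 and 5.95 CPM, the opposite order. Within the 34 5ar2 cells with neither chromosome raised, the chromosome 19 ratio had a median of 0.928 in 21 cells above 5 CPM and 0.887 in 13 others, with overlapping ranges. Neighbours of Gdf3, named by place, were closer: Apobec1 was 3.12% lower, Phc1 7.72% higher, Slc2a3 18.2% higher and Nanog 28.0% higher.

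Of the other 9 lower genes, some differed over many cells. Pmm1, of mannose phosphate metabolism, ranged from 0.216 to 427 CPM with a median of 124 in raised cells, and from 0.605 to 911 CPM with a median of 228 in remaining cells, and was 51.3% lower. Phyh, which starts the peroxisomal breakdown of branched fatty acids, ranged from 1.5 to 249 CPM with a median of 70.8 in raised cells, and from 10.9 to 422 CPM with a median of 124 in remaining cells, and was 50.1% lower. Both sets overlap, and in 5ar1 the summed levels of Pmm1 and Phyh were 324 and 150.1 CPM, nearer to the remaining cells, at 287 and 159 CPM, than to the raised ones, at 139.6 and 79.5 CPM. Slc27a2, a fatty acid transporter and acyl-CoA synthetase, was 50.1% lower, the mitochondrial NAD kinase gene Nadk2 49.3% lower, Vps53 of endosome traffic 50.7% lower and the kinase gene Nek1 45.6% lower.

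The rest of the lower genes were secreted or surface factors, whose medians differed less than their sums. Spp1, osteopontin, was 75.0% lower in the sum, but its medians were 0.223 and 0.490 CPM. The Nodal co-receptor gene Tdgf1 was 50.9% lower in the sum, with 35.8% of the remaining cells' counts in 1 cell, and its medians, 12.9 and 9.57 CPM, have the opposite order. Bambi, a decoy receptor of the TGF-beta family, was 50.3% lower in the sum, with medians of 24.4 and 24.9 CPM.

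Of the 10 higher genes, Thbs1, a matrix thrombospondin, had the largest fold, 5.55, with 73.1% of its raised counts in 1 cell and medians of 0.236 and 0.0855 CPM. Pde1b, a cyclic nucleotide phosphodiesterase, ranged from 0 to 593 CPM with a median of 83.1 in raised cells, and from 0 to 277 CPM with a median of 41.3 in remaining cells. It was 118% higher, and the raised cell was the higher in 70.6% of pairs. Plekhg2 was 115% higher, the scavenger receptor gene Colec12 104% higher, Fbxw9 91.4% higher, Zfp105 84.8% higher, Edc4 of mRNA decapping 72.8% higher, the Wnt receptor gene Fzd2 72.7% higher, Enkd1 72.6% higher and Tnnt1 70.5% higher. The summed levels of 5ar1 lay below both 5ar2 sets for Pde1b, at 29.1 CPM, and for Colec12, at 33.5 CPM. For Edc4 and Zfp105 they were 63.6 and 61.7 CPM, near the raised cells, at 56.9 and 68.4 CPM.

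By pairs of cells other genes were among the most one-sided, and they were named after their values were seen. Ftl1, the ferritin light chain (chr7:45457944-45459884), ranged from 1414 to 4249 CPM with a median of 2751 in raised cells, and from 1860.3 to 8158 CPM with a median of 4272 in remaining cells. Cells with neither chromosome raised had a median of 4402 CPM, those with only 16 raised 3279 CPM and those of 5ar1 3460.4 CPM. The raised cell was the higher in only 22.9% of pairs. Ftl1 was 37.9% lower, and Ftl1-ps1 on chromosome 13, which can share its reads, 38.9% lower, whereas the heavy chain gene Fth1 on chromosome 19 was 33.4% higher.

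**Figure D5:**
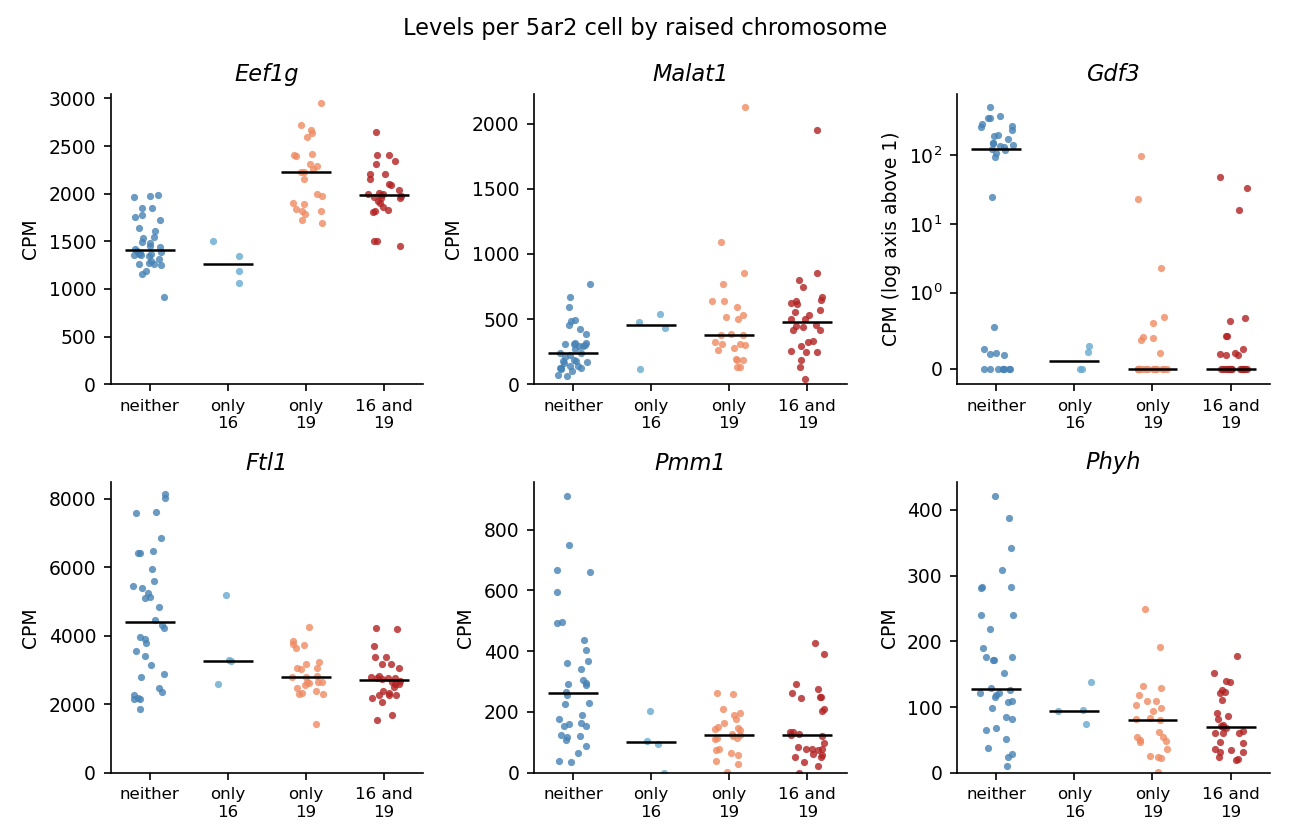
Level in CPM (vertical axes) of 6 genes in each 5ar2 cell by class (neither chromosome raised, only 16, only 19, both), with 1 point per cell and black lines at the medians. The Gdf3 axis is logarithmic above 1 CPM, and Gdf3, Ftl1, Pmm1 and Phyh, which lie off chromosome 19, have their highest cells among the 34 with neither raised, unlike Eef1g and Malat1.

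Most measured genes beside Ftl1 were lower too. From Rpl13a to Ppp1r15a (chr7:45125558-45526268), a stretch chosen for its low values, so that counts over it are a description only, 9 of 10 measured genes beside Ftl1 were lower and 6 were lower by 20% or more. With Ftl1 the 11 genes had a median 22.2% lower. The apoptosis gene Bax was 22.2% lower, the ATPase gene Ruvbl2 23.2% lower, the transcription factor gene Tead2 21.3% lower and the glycogen synthase gene Gys1, which overlaps Ruvbl2 and can share its reads, 37.7% lower. The exception was Aldh16a1, 3.53% higher. Without the cells with raised chromosome 16 the median was 26.8% lower, and in AF32 it was 7.02% higher. The median over all 480 measured genes of chromosome 7 was 0.831% lower.

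Other one-sided genes lay on several chromosomes. The coatomer gene Copg1 ranged from 0.224 to 357 CPM with a median of 157 in raised cells, and from 0 to 269 CPM with a median of 109 in remaining cells. It was 52.0% higher, and the raised cell was the higher in 76.1% of pairs. Epb41l4a was 173% higher, the recombination gene Rad52 109.5% higher and Eef1d, a partner of Eef1g, 25.3% higher. On the lower side, Desi2 was 47.3% lower, the cell cycle phosphatase gene Cdkn3 57.8% lower, the coactivator gene Sub1 29.0% lower and Gdi2 23.9% lower.

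Most gene lists off chromosome 19 had few members past 25% higher or 20% lower, sizes reached by 10.6% and 11.3% of genes off chromosomes 16 and 19. Of 9 formative factors 1, Nanog, was higher, and 1, Tdgf1, lower. Without cells with raised chromosome 16 Nanog was only 16.0% higher, and the medians of Tdgf1 have the opposite order, while Dnmt3b, Utf1 and Pou5f1 were 16.3%, 15.6% and 12.6% lower. Of 25 genes of DNA replication 3 were higher and 1 lower, and the 3, Mcm4, Cdc45 and Chaf1b, lie on chromosome 16. Of 23 genes of mitosis 0 were higher and 2 lower, Hmmr by 34.6% and Nusap1 by 25.2%, with a median 11.5% lower. Between cells with only 19 raised and cells with neither, 1 of the 23 was above 1 and 6 were lower by 20% or more, beside 15.8% of genes off chromosomes 16 and 19, with a median 14.4% lower.

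Lists of stress and metabolism were similar. Of 32 proteasome genes 0 passed either way, and the list's median was 4.49% lower. Of 21 heat shock genes 0 were higher and 2 lower, of 16 targets of the amino acid response factor ATF4 1 and 3, and of 18 autophagy and lysosome genes 1 and 1, with medians 3.13% lower, 12.6% lower and 1.5% lower. Of 15 glycolysis genes 0 were higher and 3 lower, and of 20 genes of sterol and lipid synthesis 2 and 2, with medians 9.88% lower and 3.31% lower.

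In signalling, 1 of 10 Nodal and Fgf genes, Fgf15, was 51.2% higher and 1, Fgf4, 46.8% lower. Of 7 Wnt genes 0 passed upwards and 1, the tankyrase gene Tnks, was 46.8% lower, while its paralog Tnks2 on chromosome 19 was 42.3% higher. The Wnt list, like that of p53 targets singled out after its values were seen, differed by class. With both chromosomes raised against neither, 4 of 7 were higher by 25% or more, beside 15.2% of genes off chromosomes 16 and 19, and 1 lower by 20% or more, beside 15.3%, with a median 26.3% higher. With only 19 against neither, 0 were higher, beside 12.3%, and 3 lower, beside 15.8%, with a median 14.3% lower, and 1 of the 7 lies on chromosome 16. Of 3 measured interferon genes, Irf1 was 152% higher, Irf3 15.0% higher and Bst2 34.3% lower. Of 3 measured streak and neural genes, Eomes, Nes and Tubb3, 0 passed.

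Targets of p53, a list singled out after its values were seen, differed between cells with both chromosomes raised and cells with only 19 raised. Over all cells 2 of 14 were higher and 2 lower, with a median 3.54% higher. In cells with both against neither, 10 of 14 were higher by 25% or more, beside 15.2% of genes off chromosomes 16 and 19, and 0 were lower by 20% or more, beside 15.3%. In cells with only 19 against neither, 1 was higher, beside 12.3%, and 9 were lower, beside 15.8%. The medians of the list were 33.4% higher and 22.1% lower.

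The ranges of these targets overlap between all classes. Ccng1, a cyclin induced by p53, had a median of 332 CPM in cells with both raised, 168 CPM with only 19 and 174 CPM with neither. Phlda3, an Akt inhibitor, had 266, 124 and 87.2 CPM, and Cdkn1a, the p21 gene, 97.9, 48.7 and 91.8 CPM. The list's summed level had medians of 2026, 1333 and 1419 CPM in these classes, and 2182 CPM in the 4 cells with only 16.

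The same limit in AF32 gave a smaller and less even step, in cells that differed in other chromosomes as well. All 18 raised cells passed 1.2 on chromosomes 2, 8 and 11, as did 11, 23 and 48 of the 62 remaining cells. Genes of chromosomes 2, 8 and 11 had medians 33%, 50.5% and 3.01% higher in the raised ones. Chromosome 10 passed 1.2 in 0 raised and 18 remaining cells, and its genes had a median 21.1% lower in the raised ones. Differences by chromosome 19 therefore cannot be told apart from those by chromosomes 2, 8 and 10. The 254 genes of chromosome 19 had a median 38.9% higher, with quartiles of 12.5% and 71.2%. Of these, 214 were higher and 157 were higher by 25% or more, beside 27.0% of genes off chromosomes 16 and 19 and 19.6% of genes off chromosomes 2, 8 and 11 too. Differences of single genes did not run in parallel between the lines, with a Pearson r of 0.030 across the 254 genes on the log2 scale, as a description over genes that share their libraries. Of the 20 genes named above by size off chromosomes 16 and 19, 12 had the same direction in AF32, 6 higher and 6 lower. Of the 6 higher ones 3, Edc4, Fbxw9 and Enkd1, lie on chromosome 8, and were 158%, 137% and 86.7% higher there. Of the 11 named genes off chromosomes 2, 8 and 11, 6 had the same direction, 3 higher and 3 lower. Pmm1 was 35.1% higher, the opposite order. Of all 6061 genes off chromosomes 16 and 19, 3051 were higher in the raised AF32 cells. How many of all these genes had the same direction in both lines was not counted. Nothing is therefore read from the counts of named genes with the same direction.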

How the data were processed

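RNA of single sorted cells was sequenced with Smart-seq2, and each line is a group by its label. The first table the authors deposited holds a raw count per gene and cell, made with STAR 2.7.3a and featureCounts 2.0.0 on GRCm38 per the submitters' processing notes. The second, which the authors deposited as sctransform values, is a score corrected for depth and served only as an alternative. No doublet caller was run, since 1 cell was sorted per well, and 0 cells had the counts of another cell.

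Of 96 cells of 5ar2, 90 with 3000000 counts or more were kept, with 3322377 to 5884866 counts. Genes were annotated with GENCODE M21, where 52 of 31617 had no record. Levels and folds come from summed counts, with exact conditional intervals, and shares have Clopper-Pearson intervals. Reads were not collapsed to molecules, so intervals of folds cover the counting of reads alone, not of molecules. Intervals of shares cover the counting of cells within 1 culture alone. Cells and lists were chosen with earlier results of these data known, and no test was run. Strand was not used in counting as far as stated, so overlapping genes are uncertain. Python 3.11.15, numpy 2.4.6, pandas 2.3.3, scipy 1.17.1 and matplotlib 3.10.9 were used, and the steps were tested on simulated data.

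On chromosome 19, named genes were the 10 with the highest level, the 5 largest and 5 smallest folds at 50 CPM or more, Malat1, Neat1 and members of the lists by role. Elsewhere they reached 50 CPM in either set, had a count in over 50% of cells of the higher set, and were the 10 each way with the largest fold in the smaller of the comparisons with and without cells with raised chromosome 16. Noncoding genes, pseudogenes with their parents, genes below 1 on chromosome 19 and genes beside Gdf3 were named for their kind or place, after their values were seen. Alternatives changed the limit, the gene and count minimum, the cap, the gene means, the values used and the cells included.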

Additional observations from a re-analysis of the deposited data

How the results depend on the processing

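The number of raised cells was 49 to 52 under 9 of 10 alternatives, and all of these cells were among the 52. With gene means over 5ar2 cells alone it was 16. Raised cells then enter the mean, and the sets still did not overlap, at ratios of up to 0.891 and from 5.2% above 1. The median fold of chromosome 19 genes moved only with medians of CPM per cell, to 1.588. Off chromosome 19, 337 genes passed 1.5-fold. The number was 948 with medians of CPM per cell, 548 without cells with raised chromosome 16, 1270 among 9439 genes of 5 CPM or more and 69 among 3718 genes of 50 CPM or more. Under the other 5 alternatives it was 345 to 357. The median of the same folds in AF32, 38.9% higher, was 34.4% to 41.6% higher under 3 alternatives added after seeing the data.

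Of 273 values of 39 named genes, 270 kept their direction. Named genes off chromosome 19 had to keep it without cells with raised chromosome 16, and those on chromosome 19 chose the cells. Part of this count was therefore set by the choice. The exceptions were Tdgf1 with medians of CPM per cell (1.351), and Slc3a2 (1.014) and Cpsf7 (0.982) without cells with raised chromosome 16. No paired analysis was possible because the result comes from no test and the cells of a line share no replicate. A single culture per line limits every comparison, and depth limits genes under 20 CPM.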
